A study of Mus musculus with 4 samples.

Results

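Chromatin bound by BCL6 was examined at 10 genes of the circadian clock in mouse fat cells. The genes were Cry1, Cry2, Per1, Per2, Nfil3, Nr1d1 and Nr1d2, grouped here as repressors, and Arntl, Rora and Npas2, grouped as activators. Their sites were all deposited BCL6 peaks whose nearest annotated promoter, at any distance, belongs to one of the 10 genes. By that rule 13 of 5741 peaks were theirs, 2 of 1785 in the list from inguinal fat and 11 of 3956 in the list from perigonadal fat. Cry2 and Nr1d2 had no peak in either list.

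BCL6 is a zinc finger protein that represses transcription. Chromatin immunoprecipitation sequencing (ChIP-seq), which counts DNA fragments pulled down with an antibody, was done with a guinea pig antibody raised against mouse Bcl6. Both depots, inguinal (subcutaneous) and perigonadal (visceral), came from C57BL/6 mice of the genotype Adipoq-Cre;Sun1-sfGFP-myc, with 1 BCL6 library and 1 input library per depot. Adipoq-Cre is active in fat cells, so that the tagged Sun1 protein marks the nuclear membrane of adipocytes, and tagged nuclei were collected with beads against the myc epitope after fixation. All 4 samples share that genotype, and none lacks BCL6. The age, sex and number of the animals and the hour of dissection are not given in the sources used here, and the hour bears on genes that cycle through the day. The 2 input libraries were not analysed here.

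The clock is a feedback loop of transcription. The proteins made from Arntl (also called BMAL1) and Clock, or from Arntl and Npas2, bind E-box sequences and switch on the Per and Cry genes, whose proteins then inhibit that pair. A second loop acts on Arntl itself through ROR elements, where RORA activates and the nuclear receptors made from Nr1d1 and Nr1d2 (REV-ERB alpha and beta) repress. NFIL3 represses genes that carry D-box elements. In fat cells the clock is known to give daily rhythm to genes of lipid storage and release.

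The promoter sequences below are of the repressor genes with a perigonadal peak within 5 kb that have an entry in the RefSeq promoter table. They run 5' to 3' on the strand of the gene, from 250 bases before the start of transcription to 50 after it (RefSeq, GRCm38.p6, the assembly behind mm10). Nfil3 is shown because it is the member whose promoter window was itself covered by a peak, and its capitals mark the 117 bases covered, chr13:52981173-52981289.
Nfil3, chr13:52980990-52981289, minus strand: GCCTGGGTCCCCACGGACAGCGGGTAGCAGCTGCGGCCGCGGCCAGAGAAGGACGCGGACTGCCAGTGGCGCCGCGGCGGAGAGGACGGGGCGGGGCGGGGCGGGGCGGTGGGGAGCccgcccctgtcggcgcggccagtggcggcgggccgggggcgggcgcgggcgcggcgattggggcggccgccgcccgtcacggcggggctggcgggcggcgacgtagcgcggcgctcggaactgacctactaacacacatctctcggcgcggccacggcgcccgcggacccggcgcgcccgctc

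The other 3 are shown because clock proteins act on such promoters, although their peaks lay outside these windows. Capitals mark an E-box (CACGTG), an E'-box (CACGTT, or AACGTG on the other strand) or a ROR motif (AGGTCA, or TGACCT).
Cry1, chr10:85185005-85185304, minus strand: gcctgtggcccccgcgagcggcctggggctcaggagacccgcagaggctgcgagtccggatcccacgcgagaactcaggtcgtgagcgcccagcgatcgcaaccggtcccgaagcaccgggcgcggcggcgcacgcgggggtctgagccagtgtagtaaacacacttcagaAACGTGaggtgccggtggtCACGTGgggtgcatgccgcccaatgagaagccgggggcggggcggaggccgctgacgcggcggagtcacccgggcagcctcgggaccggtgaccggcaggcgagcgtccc
Per1, chr11:69098699-69098998, plus strand: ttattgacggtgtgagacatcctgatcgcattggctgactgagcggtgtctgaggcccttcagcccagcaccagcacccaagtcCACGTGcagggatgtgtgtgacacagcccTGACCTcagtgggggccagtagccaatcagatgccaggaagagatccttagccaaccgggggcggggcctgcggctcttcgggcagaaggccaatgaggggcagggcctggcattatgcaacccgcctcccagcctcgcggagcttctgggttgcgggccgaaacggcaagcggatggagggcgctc
Nr1d1, chr11:98775328-98775627, minus strand: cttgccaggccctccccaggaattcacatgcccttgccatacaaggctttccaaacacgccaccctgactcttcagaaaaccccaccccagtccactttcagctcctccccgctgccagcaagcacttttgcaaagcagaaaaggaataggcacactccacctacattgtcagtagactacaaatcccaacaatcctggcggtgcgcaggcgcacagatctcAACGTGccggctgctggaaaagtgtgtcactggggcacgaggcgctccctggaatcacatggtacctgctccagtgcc

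With the first transcribed base counted as 0, the Cry1 window held an E'-box match at position -79 and an E-box match at -60. The Per1 window held an E-box match at -166 and an AGGTCA match at -137, and the Nr1d1 window an E'-box match at -28. The Nfil3 window held an AGGTCA match at -12, outside the covered bases and so in lower case above. Members without a peak near the window had matches too: Cry2 held an E'-box at -166, Nr1d2 held AGGTCA at -77 and Arntl held AGGTCA at 31. Over the 11 windows of the 9 members in the table, 2 held an E-box, 3 an E'-box and 4 held AGGTCA. The 2 windows of Arntl overlap, so the 11 are not all separate promoters. Searched on both strands, 7.15% of all 32851 promoter windows held CACGTG, 4.68% held CACGTT and 16.3% held AGGTCA. In the 117 covered bases of Nfil3 no motif of those searched was found, and their content of G and C was 80.3%. The peak over them runs on to chr13:52981357, outside the window, and that part was not searched. The whole Nfil3 window was 81.7% G and C, against a median of 52.7% over all windows. Member windows ran from 56.3% (Nr1d1) to 81.7%, so the shares over all windows are not matched to them in G and C.

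The letters TTCNNNGAA, shared by BCL6 and STAT type sites, were found in 8.30% of all windows. Among the 11 member windows they were found in 1, the second window of Per1, at -210. TTCCTAGAA, a form bound by BCL6, was found in 0.411% of all windows, and TTATGTAA, a D-box form, in 0.938%. Neither was in a member's window. Per2 had no entry. These windows do not hold the other member peaks, so the matches describe the promoters and not the bound sites.

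Peak scores are the authors' values, each on the scale of its own list. Within a list every score was, within rounding, a whole multiple of 1 step, read as 1 sequenced tag. The step was 0.752 for inguinal and 0.882 for perigonadal peaks. The total number of tags per library is unknown. Each score below carries the exact Poisson 95% interval of its tags, which covers counting error only, since PCR copies of a fragment cannot be told from separate molecules. The median peak had 12 tags in the inguinal list (score 9.03) and 10 tags in the perigonadal list (score 8.82), and the lowest had 9 and 6 tags. With 1 library per depot there was no replicate error and no test between depots, and scores were not compared between lists as levels.

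Cry1, a core repressor that inhibits the CLOCK and BMAL1 pair, had the tallest clock peak in both lists, and it was the single member whose peaks overlapped between depots. In inguinal fat the peak lay at chr10:85183665-85183867 with a score of 48.9 (37.7 to 62.3, 65 tags). It ranked 14 of 1785, 5.42 times the median score of its list. In perigonadal fat it lay at chr10:85183718-85183902 with a score of 40.6 (29.7 to 54.1, 46 tags), which ranked 47 of 3956 and was 4.60 times the list's median.

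Both Cry1 peaks are in intron 1 of 12, 1.29 kb downstream of the promoter in inguinal and 1.24 kb in perigonadal fat. They shared 150 bp, and their centres lay 44 bp apart. Their focus ratios, fractions deposited by the authors that describe how tags lie around the peak centre, were 0.897 and 0.898, above the medians of 0.812 and 0.833 of their lists. The nearest other protein-coding gene, Mterf2, was 55.6 kb from the inguinal peak. Cry2, the paralog of Cry1 with the same inhibitory role, had no assigned peak. The peaks nearest to its gene lay 308.1 kb away in inguinal and 167.3 kb away in perigonadal fat, both assigned to Chst1.

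Per1 and Per2 encode the PERIOD partners of the CRY proteins, and both had a peak in perigonadal fat alone. The Per1 peak at chr11:69096847-69097031 scored 27.3 (18.6 to 38.8, 31 tags) and ranked 126, with 96.5% of the list below it. It lay 2.02 kb upstream of the promoter that the authors' annotation assigned. That annotation calls the site intergenic, whereas the RefSeq table starts the Per1 gene farther upstream, at chr11:69095108-69109965, so that the peak lies inside the annotated gene. Vamp2, the nearest other protein-coding gene, was 4.47 kb away.

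The Per2 peak, in intron 1 of 22 at chr1:91457818-91458002 and 1.42 kb downstream of the promoter, was lower. It scored 10.6 (5.47 to 18.5, 12 tags), with 68.1% of the list below it and 310 peaks at the same score. In inguinal fat the nearest peak lay 66.5 kb from the Per1 site, at Ctc1, and 157.7 kb from the Per2 site, at Scly. A missing peak means that none was called, not that BCL6 was absent.

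Nfil3, the repressor that acts at D-boxes, had a pair of perigonadal peaks around its start. The taller one lay 0.482 kb downstream of the promoter in intron 1 of 1, within a CpG island, at chr13:52980465-52980649. It scored 23.8 (15.7 to 34.6, 27 tags) and ranked 177. The other lay on the promoter, at a distance of -226 bp, at chr13:52981173-52981357, and scored 13.2 (7.40 to 21.8, 15 tags), rank 603. Their centres were 708 bp apart and the peaks were separated by 523 bp, and the printed capitals are the part of the promoter window under the second. The focus ratio was 0.868 for the intronic peak and 0.696 for the promoter peak, the lowest among the members. No inguinal peak lay within 100 kb of the gene.

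Nr1d1, which encodes REV-ERB alpha, had a perigonadal peak 1.58 kb upstream at chr11:98776868-98777052. It scored 15.9 (9.40 to 25.1, 18 tags) and ranked 414, with 87.9% of the list below it. The site lies in Gm31862, a long non-coding gene of the RefSeq table, and 7.86 kb from Thra, a thyroid hormone receptor gene. The nearest inguinal peak was 94.5 kb away, on the promoter of Psmd3. Nr1d2, which encodes the related REV-ERB beta, had no assigned peak, and the nearest perigonadal one was 341.7 kb from its gene, at Thrb.

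The activators had lower peaks, with scores from 0.899 to 1.10 times the median of their list. Arntl, the gene of BMAL1, had a pair in perigonadal fat and none in inguinal fat. The first, at chr7:113188535-113188719 and 18.8 kb upstream of the assigned promoter, scored 9.70 (4.84 to 17.4, 11 tags). The second, in intron 2 of 16 at chr7:113242131-113242315 and 34.8 kb downstream, scored 7.93 (3.63 to 15.1, 9 tags), with 5.16% of the list below it. The authors' annotation calls the first intergenic, and the RefSeq range of the gene, chr7:113178471-113314126, holds both.

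Rora, which encodes an activator at ROR elements, had 3 perigonadal peaks inside its introns. Those at chr9:69194603-69194787 and chr9:69229923-69230107 scored 9.70 each (4.84 to 17.4, 11 tags), and the one at chr9:69298589-69298773 scored 8.82 (4.23 to 16.2, 10 tags). Their distances from the assigned promoter, an internal start of the gene, were -95.1, -59.8 and 8.84 kb, and their centres spanned 104 kb. Rora is the longest member, 734.8 kb.

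Npas2, which encodes a stand-in for CLOCK as the partner of BMAL1, was the other member with an inguinal peak and had none assigned in perigonadal fat. The peak at chr1:39191353-39191555, 2.82 kb upstream, scored 9.03 (4.66 to 15.8, 12 tags), the median of its list and a score shared by 209 peaks. Further peaks lay in the introns of Npas2 but were assigned to Rpl31, a ribosomal protein gene whose promoter is nearer. In inguinal fat these were in intron 5 of 20 with a score of 8.27 (4.13 to 14.8) and in intron 12 of 20 with 9.78 (5.21 to 16.7). In perigonadal fat one lay in intron 7 of 20 with 8.82 (4.23 to 16.2), and its centre was 13189 bp from the nearest inguinal one. The rule of the nearest promoter thus leaves out 3 peaks that lie within this gene. None lay within the other 9 genes in this way.

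**Figure D1:**
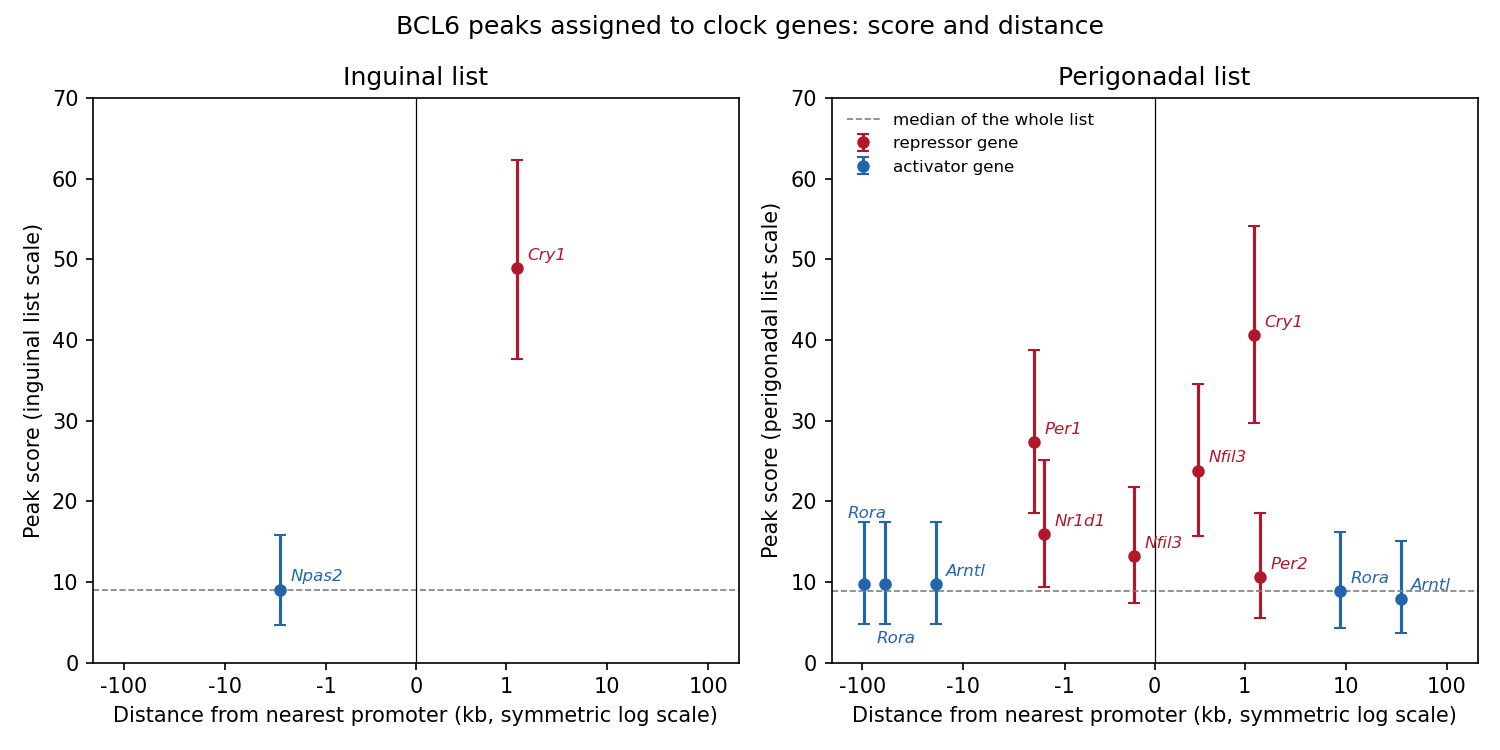
Score of each clock gene peak (vertical axis, scale of its own list) against its signed distance from the nearest promoter in kb (horizontal axis, symmetric log scale, negative is upstream), inguinal list left and perigonadal list right. Points are peaks, bars are exact Poisson 95% intervals of the tags, and the dashed line is the median score of the list; in the perigonadal panel the 6 repressor peaks lie within 2.02 kb and the 5 activator peaks at 8.84 kb or more.

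Among the listed members with a perigonadal peak, repressor peaks lay closer to promoters than activator peaks. Repressor scores were also higher, though not beyond counting error for every peak. The 6 peaks of the 5 repressors lay between 0.226 and 2.02 kb from the assigned promoter, and the 5 peaks of the 2 activators between 8.84 and 95.1 kb. Over the whole perigonadal list 17.3% of peaks lay within 5 kb of a promoter and the median distance was 31.0 kb. Scores ran from 10.6 to 40.6 for repressors and from 7.93 to 9.70 for activators, which do not overlap, but the Poisson intervals of the Per2 peak and of the Nfil3 promoter peak cover all the activator scores, and that of the Nr1d1 peak covers the highest, 9.70. The intervals of the Cry1 and Per1 peaks and of the intronic Nfil3 peak lie above these scores, but the activator intervals reach 17.4, above the lower bound of 15.7 of the intronic Nfil3 peak. These groups are few genes in 1 library, listed with earlier results on these peaks known, and the difference was not tested. Outside the 10 members, Cipc, which encodes an inhibitor of CLOCK, had a perigonadal peak 10.3 kb upstream with a score of 7.93. Rorb, a relative of Rora, had peaks 23.1 and 54.7 kb from its promoter with scores of 9.70 and 8.82. The repressors Cry2 and Nr1d2 had no peak, so the split describes the listed members and not clock repressors at large. Gene length differed along with them, since Arntl, Rora and Npas2 span 135.7, 734.8 and 169.5 kb and the repressors 7.45 to 53.4 kb, and the part of length in the result was not tested. In inguinal fat the peaks of Cry1 and of Npas2 both lay within 5 kb, so the split by distance was not seen there.

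None of the 13 clock peaks lay in an annotated repeat, which held 21.1% of inguinal and 24.0% of perigonadal peaks. Perigonadal focus ratios of the members ran from 0.696 to 0.929 with a median of 0.857, and the quartiles of the list were 0.769 and 0.902. The lowest, at the Nfil3 promoter, Arntl intron 2 (0.706) and Nr1d1 (0.731), belonged to peaks of 15, 9 and 18 tags.

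**Figure D2:**
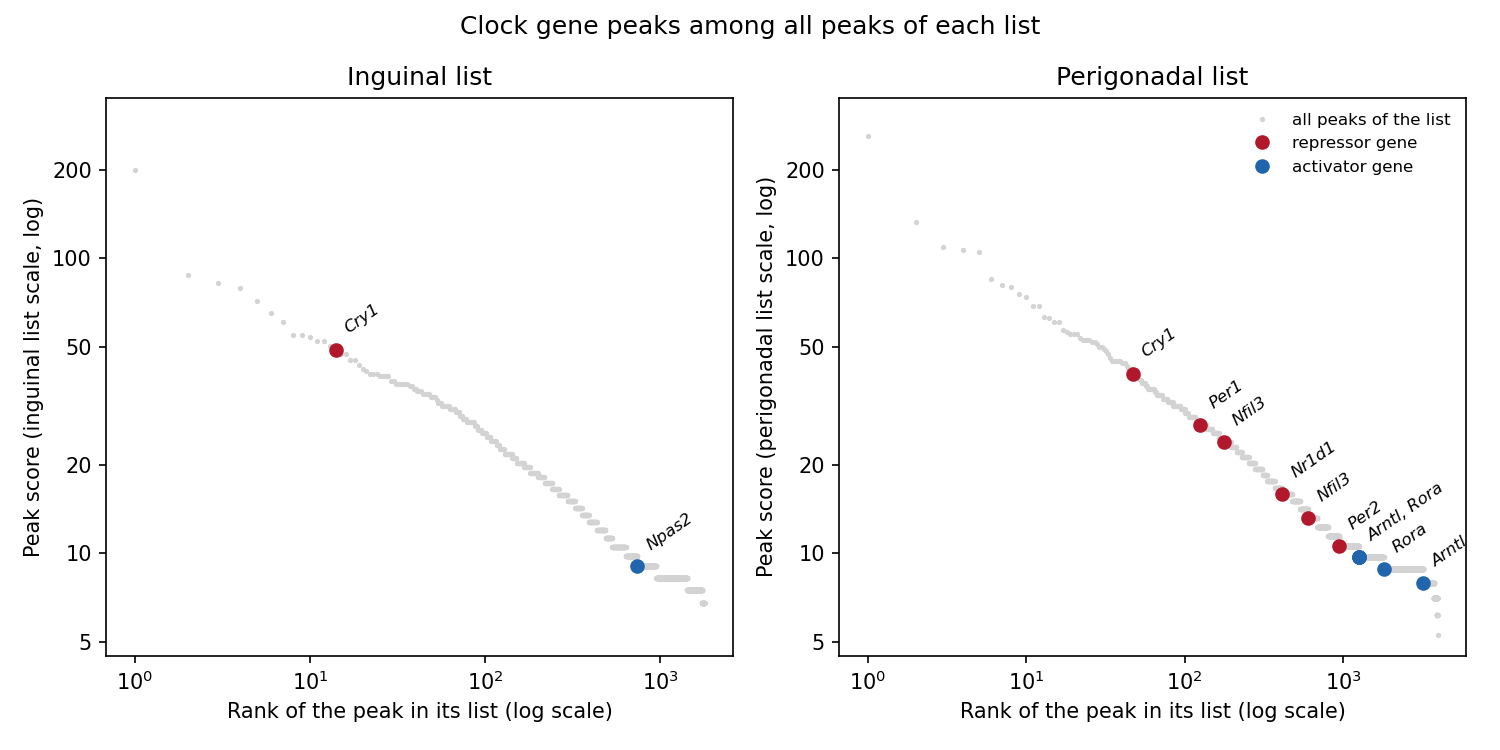
Score of every peak (vertical axis, log scale, scale of its own list) against its rank (horizontal axis, log scale) in the inguinal list, left, and the perigonadal list, right. Grey points are all peaks and coloured points the clock gene peaks; Cry1 stands at rank 14 and 47, and the activator peaks stand at rank 739 in the inguinal list and from rank 1261 to 3205 in the perigonadal list.

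Counted as genes, 2 of the 10 members (20%) had an inguinal peak, where 6.15% of 21900 protein-coding genes had one by the same rule. In perigonadal fat 7 of the 10 (70%) had a peak, where 12.3% of all genes had one. Cry1 alone, 1 of 10, had a shared peak, where 1.86% of all genes had one. The 10 genes were listed with earlier results on these peaks known, so these shares are no independent sign that clock genes as a group were bound.

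Restricting the distance or the height left fewer members in perigonadal fat. With a peak within 5 kb of the promoter there were 2 members in inguinal fat, Cry1 and Npas2, against 1.22% of all genes. In perigonadal fat there were 5, Cry1, Per1, Per2, Nfil3 and Nr1d1, against 2.70% of all genes. A limit of 10 kb kept Rora as well, 6 members in all, and the share of all genes at 10 kb was not counted. With peaks of more than 12 tags, Cry1 was left in inguinal fat, 1 of 10 against 2.63% of all genes. Cry1, Per1, Nfil3 and Nr1d1 were left in perigonadal fat, 4 of 10 against 3.29%.

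**Figure D3:**
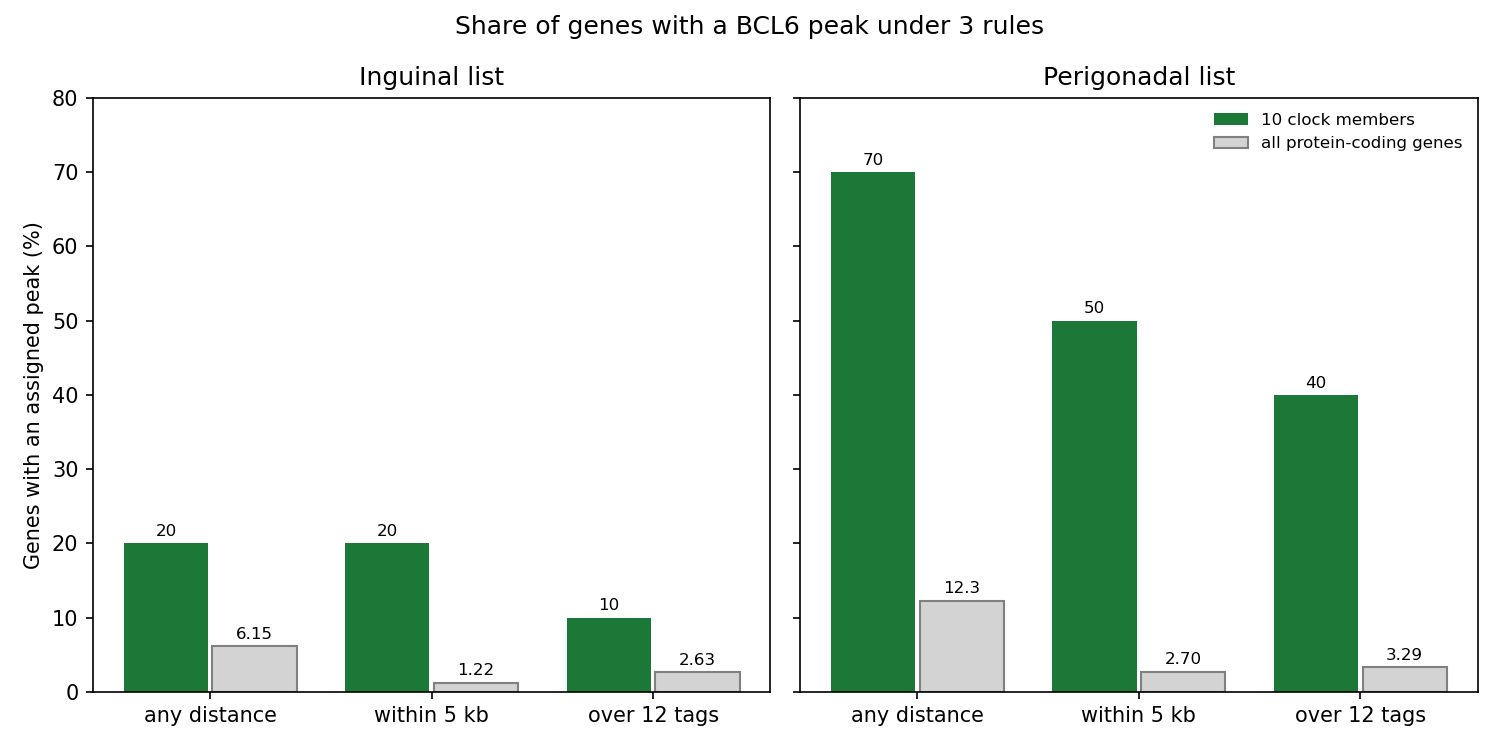
Share of genes with an assigned BCL6 peak in percent (vertical axis) for the 10 clock members (green) and all 21900 protein-coding genes (grey), in the inguinal list, left, and the perigonadal list, right. The 3 pairs of bars count peaks at any distance, within 5 kb of the nearest promoter and of more than 12 tags; the member bars stand at 20, 20 and 10% in the inguinal and 70, 50 and 40% in the perigonadal panel, and each member is 10% of the list.

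A further 18 clock genes were counted the same way. They include Clock, Per3, the D-box activators Dbp, Tef and Hlf, the repressors Ciart, Bhlhe40 and Bhlhe41, and the kinases Csnk1d and Csnk1e, which phosphorylate PERIOD proteins. In inguinal fat 0 of 18 had a peak, where 6.15% of all genes had one. In perigonadal fat 2 of 18 had one, 11.1%, close to the 12.3% of all genes. Rorb, a relative of Rora, had 1 in intron 10 of 10 with a score of 8.82 (4.23 to 16.2) and 1 in intron 4 of 10 with 9.70 (4.84 to 17.4). Cipc, which encodes an inhibitor of CLOCK, had 1 located 10.3 kb upstream in a DNA transposon with 7.93 (3.63 to 15.1). None was shared between depots, and all had at most 11 tags. The 18 genes too were chosen with earlier results on these peaks known, and the 10 members were set apart from them. Their shares are therefore no independent comparison for the members.

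A BCL6 peak is not a measure of expression, so the lists cannot check that the nuclei were those of adipocytes. Of 6 adipocyte marker genes Cidec and Lep had an inguinal peak and Lep a perigonadal one. Of 6 macrophage markers and 4 fibroblast and preadipocyte markers 0 had a peak in either list, and of 4 endothelial markers 0 had an inguinal and 1, Cdh5, a perigonadal peak. By the same rule the share over all 21900 genes was 6.15% for inguinal and 12.3% for perigonadal fat. Against such shares, lists of 4 or 6 genes are too short for these counts, those of 0 included, to tell cell types apart.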

How the data were processed

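BCL6 ChIP-seq peaks of inguinal and perigonadal adipocyte nuclei were used, 1 library per depot. Tissue was fixed with disuccinimidyl glutarate for 30 minutes and 1% formaldehyde for 10 minutes, per the labels' protocols. Bowtie 1.2, HOMER and mm10 are named in the submitters' processing notes. The peaks were annotated by HOMER, per the file headers. The inguinal header names a false discovery rate of 0.001 and the perigonadal header no threshold, so limits may differ. The sources used here do not say whether libraries were pooled. The deposited score, the focus ratio (a fraction deposited by the authors), the distances and the annotations were used as they stand. Library totals, and so depth, are unknown.

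From these, peaks were matched to genes by Entrez number in a RefSeq table of GRCm38.p6 (1589 of 1593 inguinal and 3178 of 3180 perigonadal genes matched). Scores were divided by the step of their list to give tags, with Python 3.11.15, pandas 2.3.3 and scipy 1.17.1. Peaks that overlap by at least 1 bp count as shared. The functions were checked on simulated lists. Every member and peak is named, and of the other clock genes those with a peak or with a named role; an item of that list is not reported here by name. No test was possible with 1 library per depot. The members and lists were chosen with earlier results of these data known. Promoter windows came from a RefSeq table. No genome was used here, so the sequences of the other peaks, and of the Nfil3 promoter peak beyond its window, were not searched.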

Additional observations from a re-analysis of the deposited data

How the results depend on the processing

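Of 27 recounts under alternative settings, 19 stayed within 1.5 times the reported count and 8 moved. Some of the 19 could not move. The inguinal list of 1785 peaks is itself the shorter one, so holding it to that length repeats the reported counts. The inguinal count of 0 other clock genes could not fall under a tighter distance limit. The tally is therefore no measure of stability. With peaks of more than 12 tags, the inguinal counts were 1 member and 1 peak, and the perigonadal counts were 4 members and 5 peaks. With both lists held to 1785 peaks by score, 7 perigonadal peaks of 6 members were left; the lowest score kept was 9.70, and ties at it were cut by position. Among the other clock genes, a limit of 10 kb left 0 in perigonadal fat. A wider count took every gene that spans a peak or has an end within 50 kb of one. It gave 1 of the other clock genes in inguinal fat, Csnk1e, and 5 in perigonadal fat. For the members that count gave 3, with Rora added, and 8, with Npas2 added. A long gene meets that rule more easily than a short one. The shares of all genes were not counted for the 10 kb, 50 kb and equal-length settings, so those counts have no background beside them. Cry1 was the shared member under every overlap rule tried. The 5 kb limit was chosen after seeing the data. No paired analysis was possible because each depot had 1 BCL6 library and no result comes from a test. Peaks of about 10 tags carry wide counting intervals, and a site below the limit of calling is not listed.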
